A study of Mus musculus with 8 samples.

Results

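Bone marrow (BM)-derived hepatocytes recovered from the liver 5 months after transplantation (arrays G1 and G3) were compared with primary hepatocytes (arrays H2 and H4). These are 4 of the 8 arrays of the series, chosen by their sample titles, and all 4 lie on the same slide with the same array design. All 34761 genes named on the design were considered, and 19933 of them could be tested. The other arrays hold lineage-depleted (Lin-) BM cells and BM-derived hepatocytes taken 1 month after transplantation, on a second slide with another design. The comparison asks how far donor-derived cells that took up a hepatocyte phenotype still differ in gene expression from ordinary hepatocytes.

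For the 5-month group, Lin- BM cells of female eGFP-expressing C57Bl6/J-Tg(UBCGFP)30Scha/J mice aged 6 to 8 weeks were given by tail vein to male hemophilia A mice of the same age, which carry the F8tm1Kaz allele on a mixed background. The recipients had received acetaminophen, which injures hepatocytes, and their factor VIII gene is disrupted. The transgene is driven by the ubiquitin C promoter, so that eGFP marks donor cells of any type. The liver was perfused with collagenase, hepatocytes were spun down at low speed and eGFP-positive cells were sorted. Cells of 3 mice were pooled for each experiment. The primary hepatocytes of the arrays carry only that name as their label. Their strain, sex, age, F8 genotype and any treatment or sorting are not given in the sources used here, so that donor origin, strain, liver injury and cell sorting cannot be told apart in this comparison. The 2 arrays of a group lay at neighbouring positions of the slide, so position and group cannot be told apart either.

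Hepatocytes are the main parenchymal cells of the liver. They secrete plasma proteins, run the urea cycle, make bile acids and detoxify foreign compounds, and they differ in these tasks between the periportal and the pericentral side of the lobule. Kupffer cells, the resident macrophages, sinusoidal endothelial cells and stellate cells lie next to them and are hard to remove completely. BM cells can reach a hepatic phenotype by fusion with host hepatocytes or by direct conversion, and fused cells hold chromosomes of both animals.

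Levels are given as log2 of the background-subtracted signal minus the 75th percentile of the array, so that 0 is the upper quartile of all probes. Differences are 5 months minus primary. A gene was called when its adjusted p in limma was under 0.05 and its difference was beyond 0.6 in size. A gene is said to lie apart when both 5-month arrays were above, or both below, both primary arrays and the means differed by more than 0.6. With 2 arrays against 2 an exact two-sided permutation test cannot go below 0.33, and the number of arrays limits the precision of every value.

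Genes of the sex chromosomes were read first, because the donors were female and the recipients male. Xist, the RNA that coats the inactive X chromosome of female cells, was well above background on none of the 4 arrays with either of its 2 probes, whose levels lay between -6.93 and -5.52. Ddx3y, a Y-linked RNA helicase, had levels of 2.55 and 2.37 at 5 months and of 2.36 and 2.68 in primary hepatocytes. Eif2s3y, a Y-linked translation initiation factor subunit, was at 3.57 and 3.33 at 5 months and at 3.86 and 3.65 in primary hepatocytes. Both groups thus gave a signal on probes of Y-linked genes, at levels that overlapped for Ddx3y. The differences were -0.06 (adjusted p = 0.930) for Ddx3y and -0.31 (adjusted p = 0.590) for Eif2s3y. Of the 9 Y chromosome genes listed, 4 were tested, and the other two differences were -0.53 for Uty and -0.66 for Uba1y. On the other slide, Lin- BM cells also had Ddx3y well above background, at 0.81 and -0.08 on the scale of the shared probes, where the 5-month arrays had 1.16 and 0.94. A Ddx3y signal alone therefore does not tell male from female cells here. The origin of the Y-linked signal was not tested, and no statement on the chromosomes of the sorted cells is made. The probes on which this reading rests are given by the first 30 of their bases. The Xist probes lie at chrX:100656289-100656348 and chrX:100662174-100662233, that of Ddx3y at chrY:598215-598274 (all on the minus strand) and that of Eif2s3y at chrY:364951-365010 (plus strand) of mm9.
Xist, probe at chrX:100656289: ttcattgtagcatacgcatactttcaaagt
Xist, probe at chrX:100662174: tgtgtctctttgctattggtggatttctta
Ddx3y: ccttgaagttccaattggatattgttgatt
Eif2s3y: ctgtgcaccactgaacttacagtaaagaaa

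On the arrays as a whole the groups were close. Albumin (Alb), the main plasma protein, had levels of 10.84 and 10.98 at 5 months against 10.54 and 10.84 in primary hepatocytes, and Hnf4a, the nuclear receptor that maintains hepatocyte identity, had 8.08 and 8.12 against 7.71 and 8.19. The hepatocyte label therefore held for all 4 arrays. Across the genes tested, Pearson's r was 0.9916 between the 5-month arrays, 0.9706 between the primary arrays and 0.9673 to 0.9694 between arrays of different groups. The arrays of primary hepatocytes were thus about as far from each other as from the 5-month arrays. Genes, over which r was taken, are no replicates of each other. The median gap within a pair was 0.226 at 5 months and 0.353 in primary hepatocytes. A gap of more than 2 on the log2 scale was found within the primary pair for 856 genes, and for 634 of these both 5-month arrays lay between the primary arrays. Within the 5-month pair 63 genes had such a gap. Between 48.9% and 51.9% of the spots of each array were well above background.

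**Figure D1:**
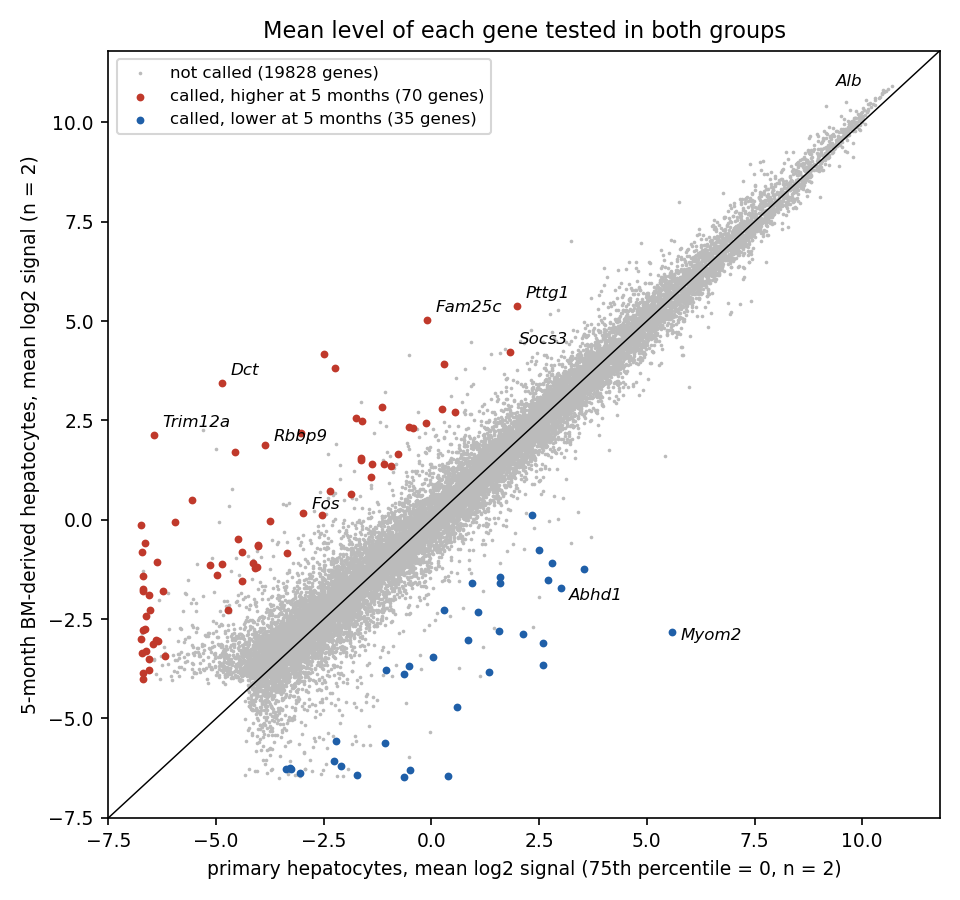
Mean log2 level of each of the 19933 genes tested in primary hepatocytes (horizontal axis) and 5-month BM-derived hepatocytes (vertical axis), n = 2 arrays each, with the line of equal levels. Red points are the 70 genes called higher and blue points the 35 called lower at 5 months, and named genes are described in the text; Alb lies at the upper end of the line.

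Between the groups 105 genes were called, 70 of them higher and 35 lower at 5 months. This is 0.527% of the genes tested (0.351% higher and 0.176% lower). Lying apart was far more frequent, with 2279 genes higher and 1751 lower, or 11.4% and 8.78% of the genes tested (20.2% together). The median difference of all genes was 0.04. Called differences were large, with a median size of 3.57 and a smallest size of 2.15. Of the called genes 52 were well above background on all 4 arrays, 31 on no primary array and 13 on no 5-month array. The smallest adjusted p was 0.0185. The last gene inside the limit was Spem2 (3.38, adjusted p = 0.0486) and the first outside it was Pde6h (-5.06, adjusted p = 0.0508). The count depended on single arrays. Without G1 or without G3, limma called 0 genes, with 1214 and 1125 genes at an unadjusted p under 0.05. Without H2 it called 1092 genes and without H4 1212, and both sets held all 105. In the fits that leave out an array, the lone array of its group was assumed to vary like the other pair.

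The largest falls were those of genes with no single function in common. Myom2, which encodes the M-protein of striated muscle, was at -3.22 and -2.42 at 5 months against 5.72 and 5.44 in primary hepatocytes. It fell by 8.40 on the log2 scale (SE 0.35, 339-fold, adjusted p = 0.0185), the largest fall among the genes well above background on all 4 arrays. Rad51b, a recombination repair factor, was at -2.76 and -3.45 against 2.85 and 2.33 and fell by 5.69 (SE 0.35). Abhd1, a member of the alpha/beta hydrolase family, had -1.73 and -1.70 against 3.01 and 2.99 and fell by 4.72 (SE 0.19). That the gap within a group was small beside that between the groups follows from choosing called genes with the largest falls. Igsf23 fell by 5.00 and Gdpd3, a lysophospholipase D, by 4.79. Abcb1b, a P-glycoprotein that exports drugs from the cell, fell by 4.36 and Cox6b2, an isoform of a cytochrome c oxidase subunit known from testis, by 4.24. The falls of Gm8909, Serpina3i, Hddc3, Ift57 and Zfp963 were between 3.25 and 3.90. Wdr72 was well above background only in primary hepatocytes (0.58 and 0.17) and was at least 24.3-fold lower at 5 months. Of its 3 probes on the design only 1 passed the filter. Rad51b and Serpina3i have 2 probes each, of which 1 passed it. The transcripts named on the array as TC1586030 and AK143478 were at least 28.0-fold and at least 11.96-fold lower. Such bounds take the weakest signal well above background on each array as the level of the group that did not reach it.

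The largest rises were likewise spread over many functions. Among called genes with a RefSeq symbol and a signal well above background on all 4 arrays, Rbbp9, Olfr1535 and Fam25c rose most, by 5.75, 5.21 and 5.14 on the log2 scale. A pair of transcripts without such a symbol rose by more, 6.68 and 6.06. Fam25c had levels of 5.17 and 4.90 at 5 months against -0.49 and 0.28 in primary hepatocytes (SE 0.34, adjusted p = 0.0318). Pttg1, securin, which holds back the separation of sister chromatids until anaphase, had 5.37 and 5.38 against 1.81 and 2.18 and rose by 3.38 (SE 0.23, adjusted p = 0.0335). Its other probe differed by 3.50. Sugct (4.30), Cyb561 (4.11), Lrit1 (3.98), Rprd1b (3.62), Sprr1a (3.38) and Gm3219 (3.18) also rose. Ccl4, a chemokine that attracts monocytes and lymphocytes, was at 0.17 and -0.26 against -3.70 and -3.82 and rose by 3.71 (SE 0.24, adjusted p = 0.0318). Dct, an enzyme of melanin synthesis, was at 3.36 and 3.51 at 5 months, while the primary arrays had -3.98 and -5.75 and only 1 of these was well above background. The difference was 8.30 (SE 0.63, adjusted p = 0.0395), and the other probe of Dct gave 8.17.

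Trim12a, a member of the TRIM5-related family of restriction factors, stood out among genes that primary hepatocytes did not show above background. Its levels were 2.34 and 1.91 at 5 months against -6.68 and -6.20. The 5-month level was at least 100.5-fold higher (adjusted p = 0.0185), and its other probe differed by 4.40. Camk2b, a calmodulin-dependent kinase, was at least 32.4-fold higher, Acpp, an acid phosphatase, at least 21.1-fold and Capn3, a muscle calpain, at least 15.5-fold. Each of them had another probe on the design that did not pass the filter, and that of Acpp was not well above background on any array. A transcript known only by its probe, A_55_P2137023, was at least 22.1-fold higher. By the rule that chose these 5 genes, the probe read passed the background test on each 5-month array and on neither primary array.

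**Figure D2:**
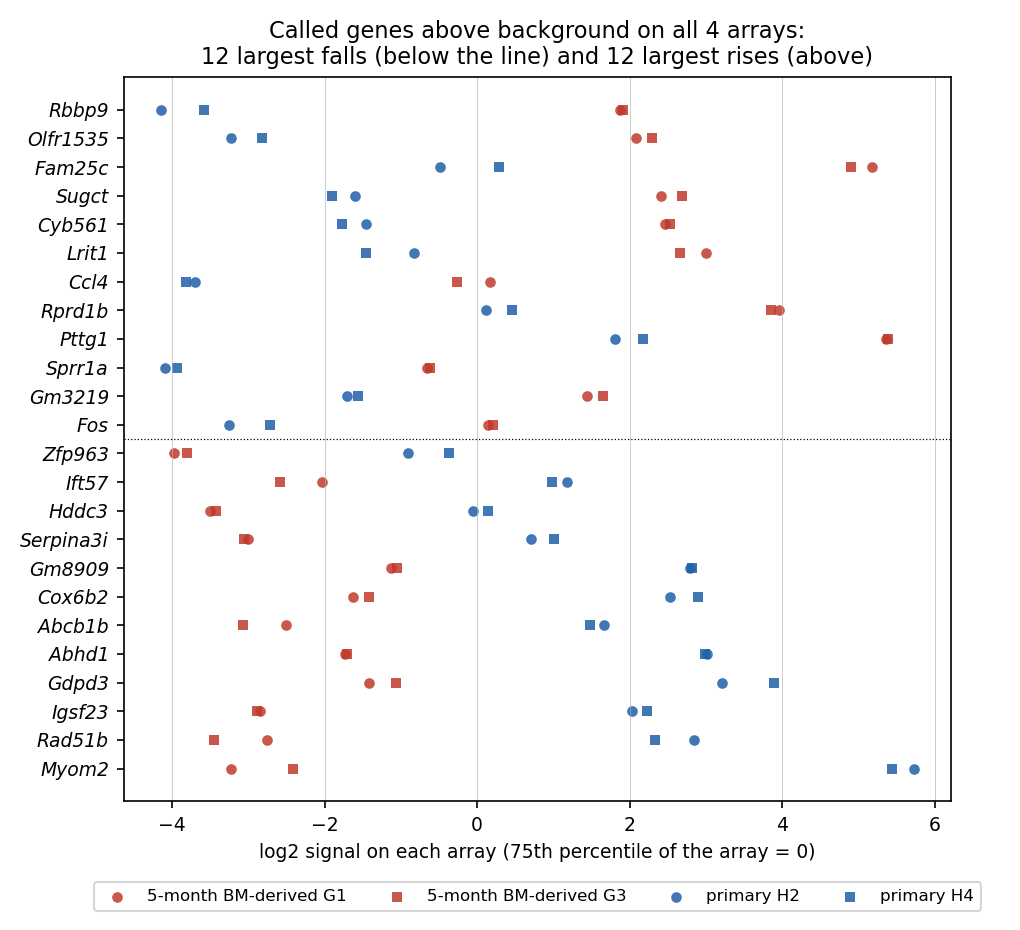
Level on each array, as log2 signal with the 75th percentile of the array at 0, of the 12 largest rises (above the dotted line) and 12 largest falls (below it) among called genes with a RefSeq symbol and a signal well above background on all 4 arrays. Circles and squares are the 2 arrays of a group, red for 5-month and blue for primary hepatocytes. The genes run from Myom2 (-3.22 and -2.42 against 5.72 and 5.44) to Rbbp9 (1.87 and 1.91 against -4.14 and -3.58). The separation of the groups follows from choosing the called genes with the largest differences.

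Most called genes were read from a single probe, which matters for how a difference is read. Of the 105 genes, 86 had 1 probe past the filter and 19 had more. Some of the 86, such as Acpp, had further probes on the design that did not pass it. For 12 of the 19 every other probe lay beyond 0.6 in the same direction, for 5 the others lay within 0.6 of 0, and for 2, Rbbp9 and Xaf1, another probe differed by more than 0.6 in the opposite direction. Rbbp9, a serine hydrolase that binds the retinoblastoma protein, had 1.87 and 1.91 against -4.14 and -3.58 by its brighter probe, and -3.13 and -3.29 against -1.11 and -1.61 by the other, a difference of -1.85. Xaf1, an interferon-induced partner of the apoptosis inhibitor XIAP, had -1.34 and -1.53 against 1.63 and 1.54 by the called probe, and -0.41 and -0.44 against -3.002 and -3.07 by the other. Its difference was -3.02 by the former (adjusted p = 0.0334) and 2.61 by the latter. Rprd1b, a regulator of the RNA polymerase II tail, had 3.96 and 3.85 against 0.12 and 0.45 by the called probe, while the other differed by -0.20. Whether the probes read different transcripts or different alleles was not tested. The first 30 bases of each probe are shown, because the direction of these genes depends on which of them is read. The lines give the probe's place in mm9, with the called probe of each gene first.
Rbbp9, chr2:144368183-144368242, minus strand: cacatacataaaataaactatgccaggtta
Rbbp9, chr2:144369557-144369616, minus strand: ccaaattgtacaaattcactgaccgtggtc
Xaf1, chr11:72127175-72127234, plus strand: tctgtatttctggaccacagtcactcattt
Xaf1, chr11:72122169-72122228, plus strand: ccttcaacccttgcatttatggactctgga
Rprd1b, chr2:157902024-157902083, plus strand: tgaagtccaaaagccataagaaggaattca
Rprd1b, chr2:157869169-157869228, plus strand: tttagaaagattgctgaacatctggcaaga

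For Rbm45, an RNA-binding protein, the probes overlap and differ in letters. The called probe, which lies at chr2:76221740-76221799 of mm9, had -1.60 and -1.60 at 5 months against 1.84 and 1.34 in primary hepatocytes, a fall by 3.19 (SE 0.26, adjusted p = 0.0399). The other, at chr2:76221763-76221822, had -0.47 and -0.10 against -0.50 and -0.94, a difference of 0.44. They share 37 positions, of which 3 differ in letter, and the stretch of 30 shared positions below, chr2:76221763-76221792 on the plus strand, holds 1 of these in capitals.
Rbm45, called probe: agcttccttagagaaataCgttgtcatgta
Rbm45, other probe: agcttccttagagaaataTgttgtcatgta

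Some called genes lay near each other. Of the 104 called genes with a chromosome in the file, 29 lay within 1 Mb of another, in 16 pairs, and the members of 10 pairs moved in the same direction. In 1 pair the probes start at nearly the same place (0.0 kb), so that it is 1 locus. The share of neighbours among all genes was not computed, and nothing is read from this count. Trim34a (3.98) and Trim12a, both of the TRIM5-related cluster on chromosome 7, have probes 38.0 kb apart. Fam25c and Gm3219 on chromosome 14 are 6.8 kb apart and Lrit1 and Lrit2, on the same chromosome, 8.0 kb, and all 4 rose. On chromosome 17 the probes of Gm8909, TC1586030 and A_55_P2016962 lie within 87.7 kb, and all of them fell. The serpin genes Serpina12, which was at least 4.29-fold higher, and Serpina3i, which fell, are 237.6 kb apart. The share of genes called was between 0% and 1.0% for each autosome, with the highest value on chromosome 7 and the lowest on chromosome 15. Recipients were of a mixed and donors of the C57Bl6/J background, and whether differences between strains in these regions bear on the values was not tested.

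F8, the factor VIII gene that is disrupted in the recipients, had levels of -0.94 and -1.15 at 5 months against -2.09 and -2.42 in primary hepatocytes. It lay apart by 1.21 (SE 0.23, adjusted p = 0.161) and was not called. A second F8 probe was not well above background on any array. Where the probes lie relative to the disrupted exon was not determined, so the values do not check the genotype. Nnt, the mitochondrial transhydrogenase whose gene carries a deletion in C57BL/6J mice, had 5.49 and 5.66 against 3.58 and 3.85. It lay apart by 1.86 (SE 0.22, adjusted p = 0.0806), and its other probes differed by 1.43 and 0.96. The former of these was not well above background on H4 and the latter on neither primary array. Where the Nnt probes lie relative to the deletion was not determined. Neither gene passed the limit of a call.

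Gene lists were then described by how many of their members tested lay apart, beside 11.4% higher and 8.78% lower among all genes. With an array left out, genes lie apart more easily, and the shares of all genes rise. They were 14.8% higher and 10.7% lower without G1, and 13.1% and 10.7% without G3. Without H2 they were 14.7% and 13.4%, and without H4 19.4% and 13.2%. Counts of a list without an array are to be read beside these shares. Scaling to the E1A spike-in probes in place of the 75th percentile moved the median of all genes from 0.04 to -0.70. Directions of lists are therefore relative to all genes, and the absolute direction of small differences depends on this choice. Such a scaling shifts all genes alike, so that a median relative to that of all genes stays the same by construction. The relative median was 0.91 for the Kupffer cell list, 0.57 for interferon genes, 0.53 for immediate early genes and -0.39 for periportal genes.

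**Figure D3:**
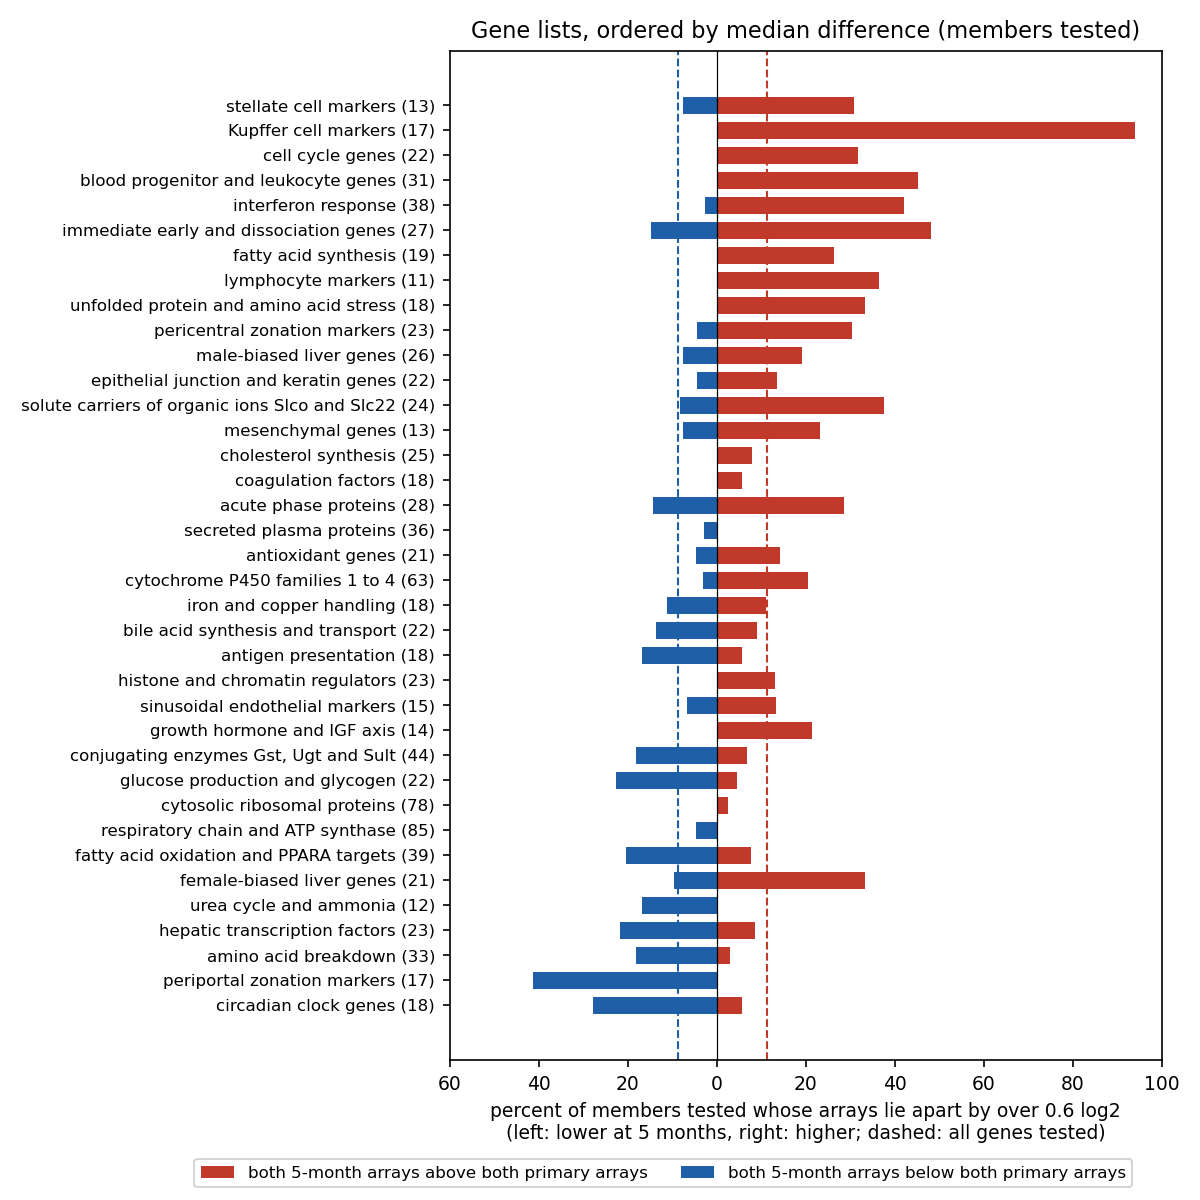
Percent of the members tested (number in brackets) whose arrays lay apart by more than 0.6 log2, lower at 5 months to the left and higher to the right, for each gene list with at least 10 members tested, ordered by median difference. Dashed lines give the same shares over all 19933 genes (8.78% and 11.4%); Kupffer cell markers extend furthest to the right and periportal markers furthest to the left.

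Macrophage genes were higher at 5 months. Of 18 Kupffer cell markers 17 were tested, 16 of them lay apart higher (94.1%) and 0 lower, with a median difference of 0.95. limma called 0 of them, and 6 had an unadjusted p under 0.05, against 2823 of all 19933 genes tested. Marco, a scavenger receptor of macrophages, was at 4.75 and 3.53 at 5 months against -1.85 and 0.78 (difference 4.67, SE 1.01, adjusted p = 0.192). Clec4f, a lectin particular to Kupffer cells in the mouse, had 3.21 and 3.67 against 1.66 and 3.01. Vsig4, a complement receptor of these cells, had 4.16 and 4.27 against 2.73 and 3.79. H2 was the lowest array for 16 of the 17 genes, and H4 lay between it and the 5-month arrays for the genes named. Without H2, 5 of the 17 lay apart higher and the median was 0.42, while without H4 it was 1.53. Defining markers were present on all arrays, with the summed level of the list at 7.15 and 7.12 at 5 months and at 5.31 and 6.45 in primary hepatocytes. Fewer cells of a type and less RNA per cell cannot be told apart in bulk RNA.

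Genes of blood cells also lay higher at 5 months in part. Of 40 blood progenitor and leukocyte genes 31 were tested, 14 lay apart higher (45.2%) and 0 lower, with a median of 0.63. Without H2 these were 6 higher and 1 lower (19.4% and 3.23%, against 14.7% and 13.4% of all genes). Gfi1b, a repressor needed for red cell and platelet precursors, was the only member called. It was at -3.77 on both 5-month arrays and not well above background on either primary array (-6.68 and -6.42), and was at least 1.69-fold higher (adjusted p = 0.0395). Runx1, a transcription factor of blood stem cells, was at -4.06 and -3.94 at 5 months, was not well above background in primary hepatocytes (-6.57 and -6.04) and was at least 1.44-fold higher (adjusted p = 0.0774). Ptprc, which encodes the leukocyte antigen CD45, was at -2.94 and -2.54 against -3.66 and -3.29 (difference 0.74, adjusted p = 0.347). Kit (0.40) and Gata2 (-0.18), genes of early progenitors, did not lie apart, and Gata1, Gfi1 and Il7r were not well above background on any array. Other members were bright in all arrays, such as the cytokine receptor Csf3r at 6.44 and 6.09 against 5.99 and 6.13. Lcp1, an actin-bundling protein of leukocytes, was at 4.86 and 4.68 against 2.08 and 2.55 (difference 2.46, adjusted p = 0.0692), while its other probe differed by -0.24.

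Several neutrophil granule genes were high on G1 alone. Of 10 neutrophil markers 4 were tested, 0 lay apart higher and 1 lower, which was the surface antigen Ly6g (-1.42 and -1.47 against -0.10 and -0.83). limma called 0 of them, and 1 had an unadjusted p under 0.05, against 2823 of all 19933 genes tested. S100a8, a calcium-binding protein of neutrophils, was at 1.88 on G1 and at -4.15 on G3, against -3.35 and -2.74 in primary hepatocytes. S100a9 was at 5.43 on G1 and at -0.10 on G3, against 0.69 and 0.39. Ngp, Ltf, Retnlg and Mmp8 were well above background on G1 and on no other array. The same held for myeloperoxidase (Mpo), with 2.01 on G1 and -5.44 or less on the other arrays. The summed level of the list was 5.82 on G1, 1.80 on G3, 2.37 on H2 and 2.08 on H4. Ctsg, another granule protease, lay apart (0.42 and -2.25 against -4.01 and -4.52), with its value on G1 well above that on G3. None of the genes named here was called.

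Other liver cell types differed less regularly. Of 13 stellate cell markers tested, 4 lay apart higher and 1 lower with a median of 1.08, and without H2 the median was 0.01, while without H4 10 lay apart higher. Col1a1, a fibrillar collagen, was at -2.71 on both 5-month arrays, was not well above background in primary hepatocytes (-6.59 and -4.48) and was at least 3.53-fold higher (adjusted p = 0.251). Lrat, which makes the retinyl esters that stellate cells store, differed by -0.32. Of 15 sinusoidal endothelial markers 2 lay apart higher and 1 lower, with a median of 0.10, among them the hyaluronan receptor Lyve1 at 1.97 (adjusted p = 0.287), and 4 higher without G1. The bile duct keratins Krt7 and Krt19 and the surface protein Epcam were not well above background on any array. Of 11 lymphocyte markers tested, 4 lay apart higher and 0 lower, and 7 higher without H4. Haemoglobin Hba-a1 was at 3.58 and 2.87 at 5 months and at -0.53 and 3.75 in primary hepatocytes, so that H2 was the lowest array. How far other cells bear on the remaining differences was not tested.

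Interferon-induced genes were higher at 5 months. Of 38 tested, 16 lay apart higher (42.1%) and 1 lower, with a median of 0.61. The count stayed between 16 and 18 and the median between 0.54 and 0.64 when each array was left out in turn. With normexp background correction the median was 0.31. Cxcl9, a chemokine induced by interferon gamma, was at 1.45 and 1.75 against -1.25 and -0.67 (difference 2.56, SE 0.29, adjusted p = 0.0773). Cxcl10, a ligand of the same receptor CXCR3, was at 0.22 and -0.18 against -2.12 and -2.37 (2.27, SE 0.25, adjusted p = 0.0739). For both chemokines the groups were well separated. Oasl1 (2.54) and Oas2 (2.33), of the family of antiviral oligoadenylate synthetases, Zbp1 (1.44), a sensor of nucleic acids, and Bst2 (0.98), which tethers budding virus, lay apart as well. Xaf1 was the only member called and it fell by the probe read, with the opposite sign by its other probe. Members without a clear difference included Stat2 (-0.10), Irf1 (0.39), Isg15 (0.33) and the immunoproteasome subunits Psmb8 (-0.08) and Psmb9 (-0.04). Outside the list, Trim34a and Gvin1, of interferon-inducible families, rose (3.98 and 2.48), Ifi206 was at least 3.45-fold higher against a level not well above background, and Ccl2, a chemokine for monocytes, rose by 3.05, with 1 primary array above background for it and for Trim34a; they were chosen after their values were seen. Of 18 genes of antigen presentation, 1 lay apart higher and 3 lower, with B2m at -0.63 and H2-Aa at -1.32. Without H2, 6 of these lay apart lower, without G3 5, and without H4 4 lay apart higher.

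Promoters of the interferon list were searched for the core of the interferon-stimulated response element, GAAA followed by 2 bases of any kind and again GAAA, on both strands of windows of 300 bases around the start given by RefSeq (GRCm38.p6). It occurred in 16 of the 29 members with a promoter in that table and in 3.49% of all 27025 promoters. A match is a description of the letters and not a site in use. Stretches around the match are shown for Cxcl10, which lay apart, and for Rsad2 (0.79), which also lay apart, Gbp2 (0.71) and Ifit1 (0.47), which did not, to show that genes with and without a clear difference hold the same letters. Capitals mark the matches.
Cxcl10, chr5:92349073-92349122, minus strand: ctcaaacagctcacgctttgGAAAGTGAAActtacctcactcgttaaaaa
Rsad2, chr12:26456543-26456592, plus strand: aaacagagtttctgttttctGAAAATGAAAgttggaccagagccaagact
Gbp2, chr3:142620584-142620633, minus strand: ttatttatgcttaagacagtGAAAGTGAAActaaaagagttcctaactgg
Ifit1, chr19:34640784-34640833, minus strand: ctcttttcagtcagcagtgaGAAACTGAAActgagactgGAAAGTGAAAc

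Immediate early genes, which respond within minutes to growth factors, injury and the dissociation of tissue, split into higher and lower members. Of 27 tested, 2 were called higher, 13 lay apart higher (48.1%) and 4 lower, with a median of 0.57. Fos, a subunit of the transcription factor AP-1, was at 0.14 and 0.20 at 5 months against -3.25 and -2.71 and rose by 3.16 (SE 0.27, adjusted p = 0.0423). Socs3, an inhibitor of cytokine signalling, was at 4.22 and 4.21 against 1.95 and 1.72 and rose by 2.38 (SE 0.21, adjusted p = 0.0461). Egr1 (2.68, adjusted p = 0.0692) and Myc (1.89, adjusted p = 0.0656) lay apart without being called, as did Fosb, Ier3 and Atf3. Among the inducible chaperones Hspa1a was at 0.41 and 0.84 against -3.39 and -1.18 and Dnajb1 differed by 1.26. Lower were Gadd45b (-1.16), Ier2 (-1.12), Junb (-0.81) and Zfp36 (-0.61), genes of the same early response. Without each array in turn 13 to 15 members lay apart higher, and the median was between 0.35 and 1.101.

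**Figure D4:**
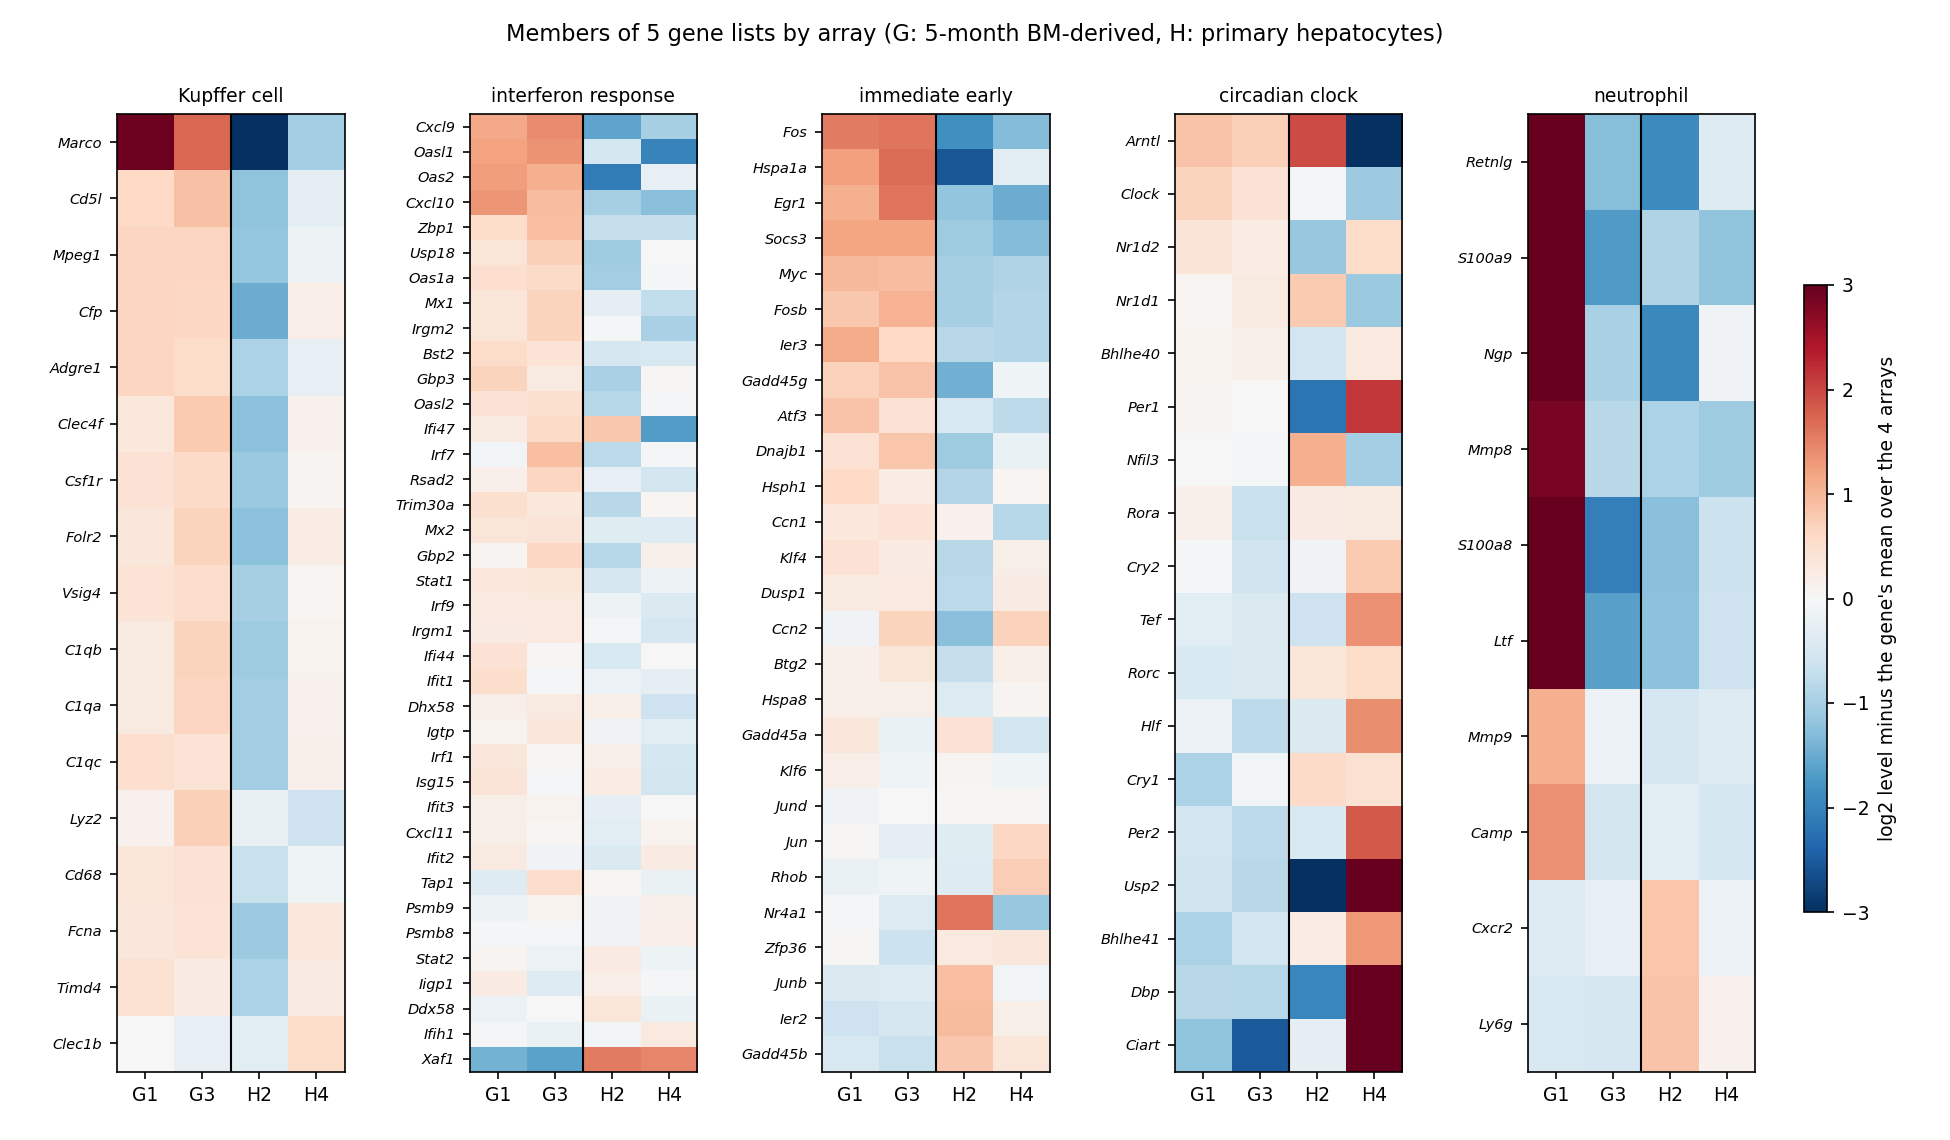
Level of each tested or listed member of 5 gene lists on each array minus its mean over the 4 arrays (log2, colours end at -3 and 3), with the 5-month arrays G1 and G3 left of the line and the primary arrays H2 and H4 right of it. Kupffer markers are lowest on H2, 16 of the 38 interferon genes lie apart higher at 5 months, clock genes separate H2 from H4 and neutrophil genes are high on G1.

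Clock genes separated the primary arrays from each other. Dbp, a transcription factor with a strong daily rhythm in liver, was at 2.03 on H2 and 7.59 on H4, with 3.15 and 3.12 on the 5-month arrays. Usp2 was at -2.43 and 4.95 against -0.03 and -0.27, and Per1, a repressor of the clock, was at 1.05 and 5.36 against 3.33 and 3.23. Arntl, which activates these genes and peaks when they are low, went the other way, with 2.14 on H2 and -3.34 on H4, against 1.04 and 0.90. For these 4 genes both 5-month arrays lay between the primary arrays. Of 18 clock genes tested, 1 lay apart higher and 5 lower, with a median of -0.71. limma called 0 of them, and 3 had an unadjusted p under 0.05, a share near that of all genes (2823 of 19933). Without H2 these were 4 higher and 11 lower, without H4 5 higher and 7 lower, and without G1 8 lay apart lower. Ciart, a repressor of the clock, was not well above background at 5 months (-4.52 and -5.85) and was at -3.62 and 0.72 in primary hepatocytes. The hour at which the livers were taken is not given in the sources used here. The E-box CACGTG, to which the activator binds, was found on either strand in the promoters of 5 of 15 members and in 7.24% of all promoters. The stretch of the Ciart promoter at chr3:95882247-95882292 (GRCm38.p6, minus strand) holds it in duplicate, in capitals, and is shown because Ciart had the largest difference of the list.
Ciart: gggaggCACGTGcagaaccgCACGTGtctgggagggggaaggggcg

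Secreted proteins of hepatocytes were close in level, and transcription factors less so. Of 36 secreted plasma proteins tested, 0 lay apart higher and 1 lower, and 31 of the differences were above 0 with a median of 0.24. The exception was Apoa4, an apolipoprotein of triglyceride-rich particles, with 3.36 and 3.31 against 6.56 and 5.39 (difference -2.65, adjusted p = 0.134). Of 18 coagulation factors only F8 lay apart. Of 23 hepatic transcription factors, 2 lay apart higher and 5 lower, with a median of -0.34, so that 21.7% were lower against 8.78% of all genes. The lower ones were Prox1 (-1.65, adjusted p = 0.104), needed for hepatocyte commitment, Nr5a2 (-1.44), a regulator of bile acid synthesis, Onecut1 (-1.11) and the nuclear receptors Nr1h4 and Nr1i3 (both -0.65). Tbx3 (1.06) and Foxa1 (0.76) were higher, and Cebpa (0.52) and Gata4 (-0.12) did not lie apart. limma called 0 of these factors, and 8 had an unadjusted p under 0.05, against 2823 of all 19933 genes tested. Without H2, 4 lay apart higher and 10 lower.

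Zonation markers differed by side of the lobule. Of 17 periportal markers, 0 lay apart higher and 7 lower (41.2%), with a median of -0.35 and between 5 and 8 lower without each array. They were Apoa4, Aldh1b1 (-1.303), Sds (-1.15), which degrades serine, Hsd17b13 (-0.95), Asl (-0.76) and Cps1 (-0.61), both enzymes of the urea cycle, and Etnppl (-0.61). The other markers of this side included Cyp2f2 at -0.02 and Ass1 at -0.39. Of 23 pericentral markers, 7 lay apart higher and 1 lower, with a median of 0.49, but without H2 this was -0.19 and 3 lay apart higher, and without H4 11 did. Glul, glutamine synthetase, which marks the cells next to the central vein, was at 5.67 and 5.66 at 5 months, at 2.88 on H2 and at 5.99 on H4. The Wnt target Lgr5 was at 0.96 and 0.87 against -1.28 and 0.32, and Slc1a2, a glutamate transporter, at 3.24 and 3.01 against 0.36 and 2.66. Pericentral genes thus differed mainly from H2. Without H2, 2 periportal markers lay apart higher and 6 lower, with a median of -0.42, so that both medians were then below 0.

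Metabolic lists showed small shifts. In amino acid breakdown 6 of 33 genes lay apart lower and 1 higher, in glucose production and glycogen 5 of 22 lower and 1 higher, and in fatty acid oxidation 8 of 39 lower and 3 higher, with medians of -0.35, -0.06 and -0.09. Without H2, 5 genes of amino acid breakdown lay apart higher, 9 of glucose production lower and 13 of fatty acid oxidation lower. Without H4, 10 genes of amino acid breakdown lay apart lower, 3 of glucose production lower and 6 higher, and 4 of fatty acid oxidation lower and 9 higher. Got1, an aspartate aminotransferase, was the lowest of the first list at -1.13 after Sds, and Acadl and Acadm, which start the oxidation of fatty acids, differed by -0.87 and -0.64. In fatty acid synthesis 5 of 19 lay apart higher and 0 lower, with a median of 0.53 that was 0.02 without H4, and without H2 10 lay apart higher. Pnpla5, a lipase of lipid droplets, was at -3.24 and -3.70 and not well above background in primary hepatocytes (adjusted p = 0.0523). The related lipase Pnpla3 differed by 2.45 (with 1 primary array above background), Me1, which supplies NADPH, by 1.28 and Srebf1, the regulator of this pathway, by 0.63. Of 63 cytochrome P450 genes of families 1 to 4, 13 lay apart higher and 2 lower, with Cyp1a1 at 2.01 and Cyp3a41b at 1.18 as the largest differences, and 6 lay apart lower without G3 or without H2. In the conjugating enzymes 8 of 44 lay apart lower and 3 higher, with Ugt1a10 at -3.20 (adjusted p = 0.0753), and without each array in turn 5 or 6 lay apart higher. Respiratory chain and ATP synthase subunits had 0 of 85 apart higher and 4 lower, among them Cox6b2 (2 without G1 and 7 without H4), and cytosolic ribosomal proteins 2 of 78 higher and 0 lower. These last lists lay under the shares of all genes in both directions.

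Genes with a sex bias in liver lay apart in both directions. Of 26 male-biased genes tested, 5 lay apart higher and 2 lower, and 21 of the differences were above 0 with a median of 0.39. Of 21 female-biased genes 7 lay apart higher (33.3%) and 2 lower, with a median of -0.18 that was 0.48 without H4. Without H4, 8 male-biased genes lay apart higher, and without each array in turn 4 to 6 female-biased genes lay apart lower. Elovl3, a fatty acid elongase of male liver, was at 7.07 and 6.93 against 4.02 and 2.46 (difference 3.76, adjusted p = 0.117). The complement component C6 (1.98), Cspg5 (1.95) and Hsd3b5 (1.48) were also higher, and Obp2a (-2.77) was lower. Scara5 was not well above background at 5 months and was at least 6.18-fold lower. Among the female-biased genes Vldlr had 3.20 (with 1 primary array above background), Cyp3a41b 1.18 and Hamp2 -1.43. Hamp, the iron hormone hepcidin, was at 5.57 and 5.46 against 6.94 and 7.91 (difference -1.91, adjusted p = 0.173). Of 28 acute phase proteins, 8 lay apart higher, among them Orm1 (1.34) and Orm2 (1.46), and 4 lower, among them Serpina3n at -1.34 and Apcs, serum amyloid P, at -1.77. Without H2 these were 5 higher and 7 lower, and without H4 14 lay apart higher.

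Genes of the cell cycle lay higher in part. Of 22 tested, 7 lay apart higher (31.8%) and 0 lower, with a median of 0.71. Without G3 or without H4, 15 lay apart higher (68.2%, against 13.1% and 19.4% of all genes). Without H2 these were 8 higher and 3 lower with a median of 0.49, and without G1 7 higher and 1 lower with a median of 0.36. Mcm6, a subunit of the replicative helicase, was at 2.46 and 2.24 against -1.67 and -0.43 (difference 3.40, adjusted p = 0.105), Rrm2 differed by 1.14 and Mcm5 by 1.099. The mitotic cyclin Ccnb1 was at -1.36 on G1 and -3.02 on G3, against -4.52 and -2.38, and did not lie apart. Of 18 genes of the unfolded protein and amino acid stress responses, 6 lay apart higher and 0 lower, led by Psat1, an enzyme of serine synthesis, at 2.75 (adjusted p = 0.0883, with 1 primary array above background). Of 23 chromatin regulators, 3 lay apart higher (5 without H4) and 0 lower with a median of 0.10, and the difference was 1.02 for the acetyltransferase Crebbp by its brighter probe and -1.29 by the other. Kdm6b, the H3K27 demethylase, was at 0.79 and 0.99 against 0.18 and 0.67 (difference 0.46), and Ezh2, the opposing methyltransferase, differed by 0.00.

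Called genes were also read in Lin- BM cells and 1-month hepatocytes, for probes of the same sequence on the other design. Those groups lie on another slide, and all arrays were scaled on the 13991 shared sequences, so that levels across slides are a description. Of 28 genes called higher with such a probe, the Lin- BM cells were nearer to the 5-month than to the primary level for 18 (64.3%), and of 15 called lower for 12. Among all genes lying apart these shares were 52.4% (of 752 higher) and 56.3% (of 733 lower). The 1-month cells were nearer to the 5-month level for 12 of the 28 (42.9%) and 3 of the 15, against 45.5% and 41.1% of the genes lying apart. For 9 of the genes called in each direction the Lin- BM cells, but not the 1-month cells, were nearer to the 5-month level, against 179 of the 752 and 203 of the 733 genes lying apart.

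Several named genes showed this order. Trim12a had a mean level of 0.71 at 5 months and 2.99 in Lin- BM cells, against -7.89 in primary and -6.85 in 1-month hepatocytes, neither of which was well above background. Rprd1b was at 2.49 and 2.86 against -1.16 and -1.79, and Pttg1 at 3.96 and 3.09 against 0.54 and 0.44. Abhd1 was at -3.13 and -4.35 against 1.55 and 1.59, in the same order. Gfi1b, in contrast, was at 3.42 in Lin- BM cells and at -5.18 at 5 months, and Fam25c was at 3.62 at 5 months but did not pass the background test in Lin- BM cells. Myom2 was at 0.93 at 1 month, between the level of primary hepatocytes (4.14) and that at 5 months (-4.23). Fos and Socs3 differed widely within the 1-month pair, with 3.20 and -3.36 for Fos and 4.54 and -0.34 for Socs3. Xist was above background in both Lin- BM cell arrays with the probe at chrX:100656289 (-2.78 and -3.92) and in neither 1-month array, while Ddx3y was above background in all 8 arrays.

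**Figure D5:**
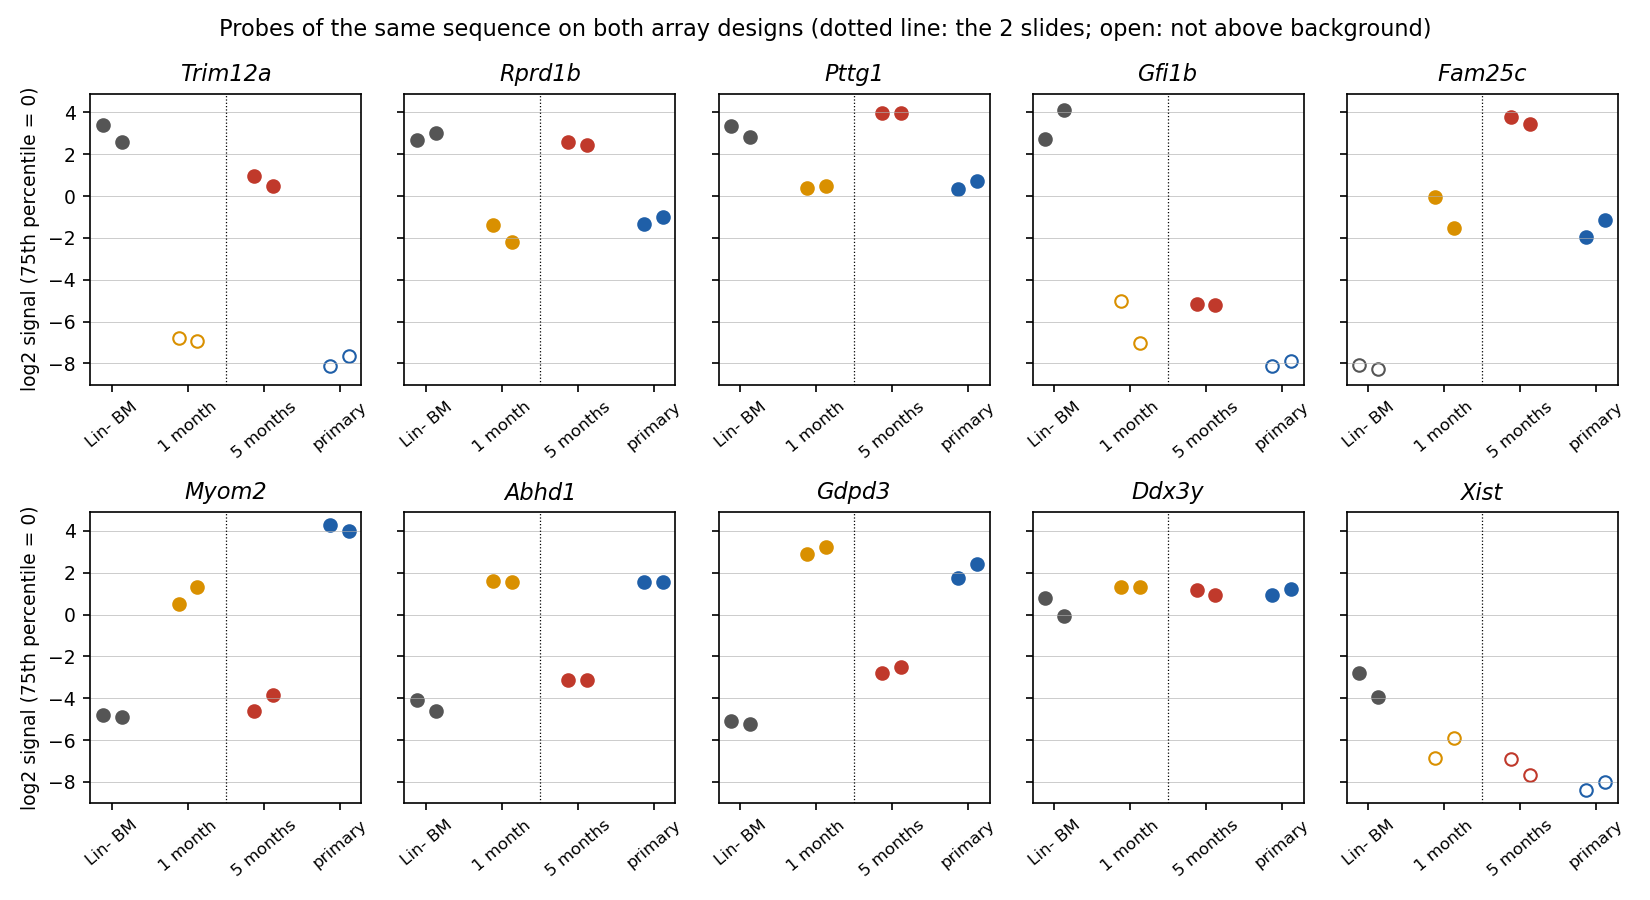
Log2 level of 10 genes on each of the 8 arrays, for probes of the same sequence on both designs and with the 75th percentile of the shared probes at 0, in Lin- BM cells, 1-month, 5-month and primary hepatocytes. The dotted line divides the 2 slides and open circles are not well above background; Trim12a, Rprd1b and Pttg1 are high in Lin- BM cells and at 5 months, Myom2, Abhd1 and Gdpd3 are low in both, and Ddx3y is above background on all 8 arrays.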

How the data were processed

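RNA was hybridised to Agilent arrays in 1 colour, and the authors extracted intensities with Agilent Feature Extraction, which had already subtracted the background of each spot. The deposited series table, in log2 units, differs from the intensities by 1 constant per array for 99.87% to 99.89% of the probes (within 0.05), as the 75th percentile shift of the methods gives. It was used as an alternative. The build of the probe coordinates in the files is mm9.

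The deposited intensities of 59305 non-control spots per array (55681 probes) were taken to log2 and the 75th percentile of each array was subtracted. Spots flagged as outliers (121 to 152 per array) were left out, no spot was saturated, and a probe had to pass the background test on each array of 1 or both groups, which 27029 did. Each gene was read from its brightest probe. Of the 19933 genes, 14138 were named through RefSeq and the others as in the file. The pairs were compared with limma 3.58.1 in R 4.3.3, with p-values adjusted by Benjamini-Hochberg over the whole table; 6 genes had a spot left out on an array. The methods' Student's t-test without correction served as an alternative. Tables were made with Python 3.11.15 and pandas 2.3.3, and the fit was tested on simulated data. Each array stands for 1 experiment with pooled cells in the study's legends, which do not say how the primary hepatocytes of its arrays were obtained, so p-values measure the spread between these arrays.

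The lists and the genes to be named (the 12 largest rises and falls among called genes with a RefSeq symbol above background on all arrays, the 5 largest bounds, called members, 2 brightest and 2 largest differences of each list, and the genes the study follows) were chosen with earlier results of these data known. Further members were named after their values were seen. No set test was run. A gene withheld from the text is not reported here.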

Additional observations from a re-analysis of the deposited data

How the results depend on the processing

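The count of called genes depended on the processing, and the count lying apart on fewer settings. Against 70 higher and 35 lower, 11 and 7 were called without a filter on detection, 15 and 12 with only genes above background on all 4 arrays, 119 higher with each probe tested by itself, and 141 and 84 with a trended and robust prior. The methods' t-test called 750 and 611 without correction, and 0 and 0 after Benjamini-Hochberg adjustment, where 2274 genes had an unadjusted p under 0.05. Leaving out each array gave 0 to 852 higher and 0 to 435 lower calls, and 2613 to 3875 genes apart higher and 2125 to 2665 lower. With normexp correction 980 genes lay apart higher and 772 lower, without the filter 3878 higher, and with all 4 groups on shared sequences 1114 and 908 (51 and 45 called, 53.1% higher against 66.7%). Scaling to the spike-in RNAs, chosen after seeing the data, gave 197 lower calls (23.6% of calls higher), with 536 genes apart higher and 11002 lower; 86 of the 105 calls were kept. Of the 105, quantile normalization kept 101, the median in place of the 75th percentile 98, the authors' values 105 and normexp 56. With only genes above background on all 4 arrays, 55.6% of the calls were higher. The direction of Rbbp9, Xaf1, Rprd1b and Rbm45 differed between their probes. Otherwise the difference of no called gene named turned its direction, but the majority of calls turned to lower with the spike-ins, and medians of lists changed sign: pericentral (0.49) to -0.19 without H2, cholesterol synthesis (0.31) to -0.20, epithelial genes (0.37) to -0.07 and female-biased genes (-0.18) to 0.48 without H4, neutrophil markers (1.37) to -0.82 without G1, plasma proteins (0.24) to -0.50 with the spike-ins, and several medians nearer to 0. With normexp the medians were 0.31 for interferon genes, 0.21 for blood genes and also for pericentral genes, 0.52 for stellate cells, 0.36 for the cell cycle and -0.33 for clock genes. Lists that rest on 1 array are named in the text. No paired analysis was possible because the groups share no replicate number. The number of arrays and the background limit weak genes.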
